A study of Homo sapiens with 4 samples.

Results

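The genes described here are the receptors and first intracellular steps of the extrinsic death pathway: the death receptors TNFRSF10A, TNFRSF10B, FAS, TNFRSF1A and TNFRSF21, the adaptor FADD, the initiator caspases CASP8 and CASP10, their regulator CFLAR, and the kinase gene RIPK1. These 10 genes were chosen by name, with earlier results of these data known. Of the 54675 probe sets on the array, which are groups of short oligonucleotides that together read a transcript, 37 were annotated to 1 of these symbols alone, and they covered 9 of the 10 genes; RIPK1 was not analysed here. Where a gene had several, the probe set whose log2 signal was highest on average stood for the gene. All 9 genes and 30 of the 37 probe sets reached the median log2 signal of the array (a signal of about 64.6) and were tested. Of the 7 dimmer probe sets, the nearest below that limit was the FAS probe set 233820_at at a mean log2 of 5.88, and the nearest above it was the CASP10 probe set 210955_at at 6.45.

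RNA of MIA PaCa-2, a long-established line of human pancreatic carcinoma cells, was hybridised to 1-colour Affymetrix arrays. One population carried a lentivirus for FLAG-tagged full-length ING3, which belongs to the NuA4/TIP60 complex that acetylates histones, in a vector whose name gives a CMV/TO promoter (ING3 cells). The other carried a GFP lentivirus (control cells). Both populations were transduced with lentivirus and selected; the labels speak of stable clones and do not say whether each population was 1 clone or a pool. Each group had 2 arrays, called a and b, which the series' design text describes as technical duplicates, so the p-values set a difference against the spread between 2 measurements of 1 cell population and do not cover differences between independent cultures.

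Death receptors are cell surface proteins with an intracellular death domain. When a ligand such as TRAIL (TNFSF10), FAS ligand or TNF binds, FADD is recruited, directly or through TRADD and RIPK1, and brings procaspase-8 and procaspase-10 together so that they activate each other. CFLAR, also called c-FLIP, resembles caspase-8 but lacks a working protease site. Its short forms block caspase-8 activation at the receptor, and its long form can block or promote it depending on its amount. RIPK1 can direct the same complex towards NF-kB signalling or, with RIPK3 and MLKL, towards necroptosis. TRAIL receptors and CFLAR have been studied in pancreatic carcinoma cells because many such lines resist TRAIL.

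All 4 arrays had a mean signal of 500.1 when trimmed by 2% at each end, which shows scaling to 1 level. Over the tested genes the SD of the log2 difference was 0.29 for the ING3 duplicates and 0.31 for the control duplicates, and it lay between 0.32 and 0.35 for pairs across the groups. The ING3 transcript had a signal of 521 and 541 on the ING3 arrays, against 338 and 373 on the control arrays, and was not called (log2 difference 0.58, SE 0.13, limma adjusted p = 0.071). RNA integrity was read from the ACTB control probe sets, whose 3' signal over 5' signal was 2.05 and 2.03 on the ING3 arrays, against 2.58 and 1.80 on the control arrays. The same ratio for GAPDH was 0.90 and 0.92 on the ING3 arrays, against 0.93 and 0.91 on the control arrays. Of 6 epithelial markers, KRT8 and KRT19 were called higher in ING3 cells (limma adjusted p = 0.033 and 0.0078). KRT18 and KRT7 were tested and not called, and EPCAM and CDH1 were under the filter. The summed signal of 3 leukocyte markers was 119 to 129 on the ING3 arrays and 57.5 to 193 on the control arrays, and PTPRC and CD14 were under the filter. The third, CD3E, was tested and not called, with 87.1 and 42.5 on the ING3 arrays, against 129 and 38.8 on the control arrays. The mesenchymal marker VIM had 24294 and 26668 on the ING3 arrays, against 27676 and 25627 on the control arrays. Of 4 fibroblast markers 3 reached the filter, COL3A1 with the highest signal (1289 and 1410, against 1414 and 1351). Both of 2 endothelial markers reached it, and 0 of 4 acinar and islet markers did. Outside the epithelial markers, none was called. In RNA from a whole culture, a lower signal from fewer expressing cells and from less RNA per cell cannot be told apart.

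Of the 9 measured genes, 1 was called, and the other 8 were not. CFLAR passed the test (a p under 0.05 after Benjamini-Hochberg adjustment) on its probe set with the highest mean, at 1.22-fold higher in ING3 cells. Of the 12 tested CFLAR probe sets, 8 had a lower mean in ING3 cells, beside 15954 of all 27305 tested probe sets. The probe set behind the call did not pass when all probe sets were fitted (limma adjusted p = 0.091). Over all 12190 tested genes 1.5% were called, 1.03% higher and 0.476% lower in ING3 cells. The arrays of the groups did not overlap for 6 of the 9 genes, 2 higher and 4 lower in ING3 cells, against 49.2% of all tested genes. The median log2 difference of the 9 genes was -0.046, beside -0.0074 over all tested genes, and the single values ran from -0.40 for TNFRSF10A to 0.28 for CFLAR. Differences are ING3 minus control on the log2(signal + 1) scale, with the moderated standard error (SE) of limma.

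**Figure D1:**
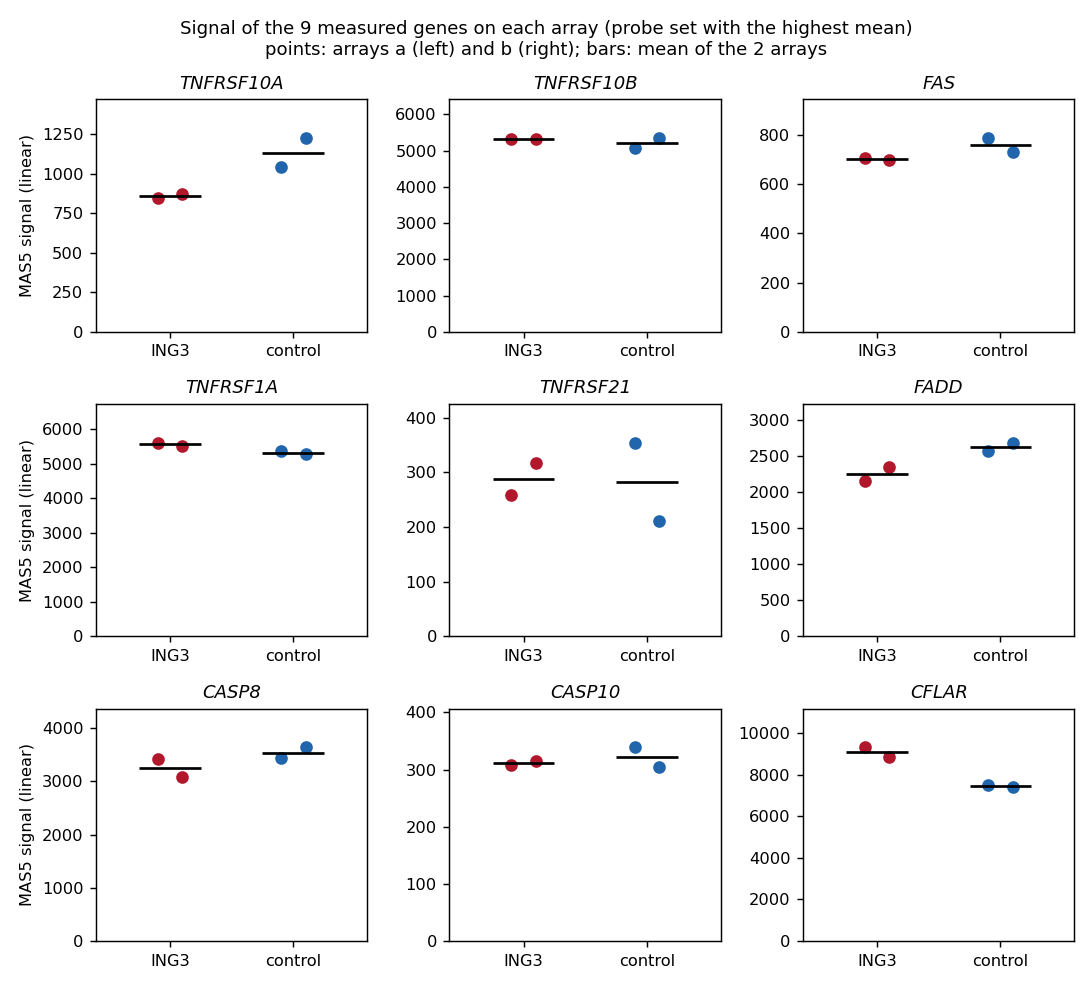
MAS5 signal (linear axis from 0, a separate axis for each gene) of the 9 measured genes on the 2 ING3 arrays (left, red) and the 2 control arrays (right, blue); black bars are the means of 2 arrays. CFLAR lies higher on both ING3 arrays than on both control arrays, TNFRSF10A and FADD lie lower, and the control duplicates of TNFRSF21 lie farther apart than the ING3 duplicates.

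TNFRSF10A and TNFRSF10B encode the death-inducing TRAIL receptors, and neither was called. TNFRSF10A had a signal of 845 and 870 on the ING3 arrays, against 1040 and 1223 on the control arrays. Both ING3 arrays lay below both control arrays, and the gap between the group means was larger than the gap between either pair of duplicates. The log2 difference was -0.40 (SE 0.10, adjusted p = 0.098), which did not pass; with the mean of all its probe sets in place of the one with the highest mean it was -0.18 (adjusted p = 0.49). The other 2 TNFRSF10A probe sets did not show the same separation. Probe set 241371_at had 551 and 515 in ING3 cells, against 548 and 506 in control cells, and 1552648_a_at had 372 and 561 in ING3 cells, against 470 and 555 in control cells, so that both overlapped between the groups.

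TNFRSF10B had a signal of 5321 and 5323 on the ING3 arrays, against 5082 and 5342 on the control arrays. The ING3 values lay between the control values, and the log2 difference was 0.030 with a 95% interval of -0.10 to 0.16 (limma adjusted p = 0.84); its sign turned after quantile normalization (-0.018) and cyclic loess (-0.0074). Its other 2 tested probe sets, 210405_x_at and 209294_x_at, also overlapped between the groups, with log2 differences of 0.11 (SE 0.20) and 0.063 (SE 0.21). Another, 1556645_s_at, was under the filter, with signals of 22.9 and 12.6 in ING3 cells, against 13.9 and 13.5 in control cells. Both TRAIL receptor genes lie on chromosome 8.

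FAS, the receptor of FAS ligand, had a signal of 706 and 700 on the ING3 arrays, against 787 and 733 on the control arrays, a log2 difference of -0.11 (SE 0.10, limma adjusted p = 0.63), which was -0.059 without control array a and -0.30 for the mean of its 5 probe sets, the dim one included. The ING3 arrays were lower without overlap, and the 95% interval of the difference, -0.34 to 0.12, included 0. All 4 tested FAS probe sets had a lower mean in ING3 cells, with log2 differences of -0.20 to -0.047. A lower mean was also found for 15954 of all 27305 tested probe sets. Of the 4, 3 were lower without overlap, against 28.8% of all tested probe sets. The exception was 215719_x_at, with 289 and 339 in ING3 cells, against 280 and 374 in control cells. The probe set under the filter, 233820_at, had 58.4 and 28.6 in ING3 cells, against 104 and 63.7 in control cells. FAS lies on chromosome 10 at positions 88964050 to 89017059 (GRCh38.p14, RefSeq), where it overlaps ACTA2 and the antisense gene FAS-AS1, whose probe set was under the filter at 35.3 and 58.8 in ING3 cells, against 76.4 and 69.8 in control cells.

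TNFRSF1A, the widely expressed TNF receptor, was read by 1 probe set, with a signal of 5603 and 5508 in ING3 cells, against 5351 and 5285 in control cells. The groups did not overlap, but the difference was small, at 0.063 on the log2 scale with a 95% interval of -0.066 to 0.19 (limma adjusted p = 0.62). TNFRSF21, death receptor 6, had 259 and 317 in ING3 cells, against 354 and 212 in control cells. The control arrays of TNFRSF21 spanned the ING3 arrays, and the 95% interval of its log2 difference, -0.49 to 0.61, was the widest of the 9 genes; its second probe set overlapped as well (log2 difference 0.085, SE 0.27).

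FADD, the adaptor that links the receptors to caspase-8, was read by 1 probe set designed from a RefSeq transcript of the gene. Its signal was 2149 and 2340 on the ING3 arrays, against 2565 and 2679 on the control arrays. The ING3 arrays were both lower, by 1.17-fold on average, a log2 difference of -0.23 (SE 0.074, unadjusted p = 0.013, limma adjusted p = 0.16), which did not pass over all genes. Under the alternatives tried the difference stayed between -0.29 and -0.16.

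CFLAR, CASP10 and CASP8 lie next to each other in this order on chromosome 2, at positions 201116164 to 201176687, 201183141 to 201229406 and 201233463 to 201287711 (GRCh38.p14, RefSeq). CFLAR was higher in ING3 cells on its probe set with the highest mean, and CASP10 and CASP8 were not called. CASP8, the main initiator caspase of the pathway, had a signal of 3428 and 3084 in ING3 cells, against 3432 and 3639 in control cells (log2 difference -0.12, SE 0.074, limma adjusted p = 0.43; -0.044 without ING3 array b, -0.078 without control array b and -0.20 without ING3 array a). The ING3 array a lay only just under the lower control array, so the absence of overlap rests on a gap of a few signal units. The second CASP8 probe set, 207686_s_at, had 199 and 154 in ING3 cells, against 204 and 202 in control cells, also lower without overlap and not called (log2 difference -0.22, SE 0.22). The third, 1553306_at, was under the filter.

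CASP10, the second initiator caspase, had 308 and 315 in ING3 cells, against 339 and 305 in control cells. The groups overlapped, and the log2 difference was -0.046 with a 95% interval of -0.39 to 0.30 (limma adjusted p = 0.91); it was above 0 after quantile normalization (0.044) and cyclic loess (0.049). The other tested CASP10 probe set, 210955_at, overlapped too, at 88.3 and 87.1 in ING3 cells, against 75.3 and 96.9 in control cells. The 2 remaining CASP10 probe sets, both of the _x_at kind, were dim, with signals of 5.72 to 43.0 over the 4 arrays.

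**Figure D2:**
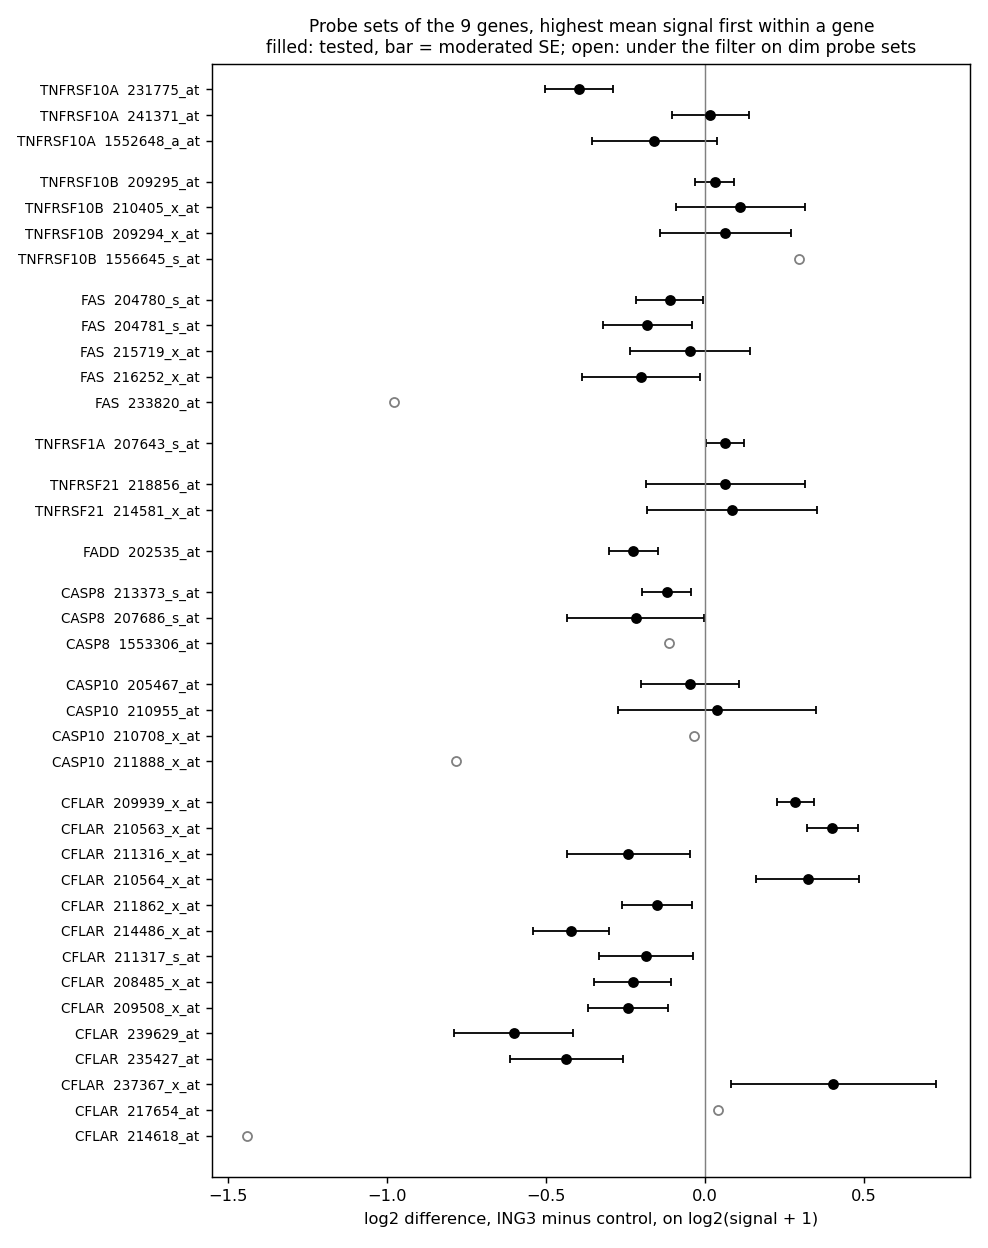
Log2 difference, ING3 minus control, of the 37 probe sets of the 9 genes, ordered within each gene from the highest mean signal down; filled points were tested and carry the moderated SE, open points were under the filter. The CFLAR probe sets spread from -0.60 to 0.40 among the 12 tested, with 4 above and 8 below 0, while the 3 tested TNFRSF10B and the 4 tested FAS probe sets each lie on 1 side of 0.

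CFLAR had 14 probe sets, the most of any of these genes, and they did not read the comparison alike. The probe set with the highest mean, 209939_x_at, had a signal of 9320 and 8851 on the ING3 arrays, against 7484 and 7433 on the control arrays, or 9086 ± 332 in ING3 cells and 7458 ± 36.1 in control cells (SD, n = 2 arrays each). Both ING3 arrays lay above both control arrays, by more than the gap between either pair of duplicates. On this probe set CFLAR rose 1.22-fold (log2 difference 0.28, SE 0.057, adjusted p = 0.047 over the 12190 genes). The call stands close to its threshold: it held with a pseudocount of 16 and without ING3 array b, and was lost without ING3 array a, without control array a or b (adjusted p = 0.063, 0.32 and 0.32), without an intensity trend (0.31), with no filter (0.12), after quantile normalization (0.088) and after cyclic loess (0.099). In these 7 settings the log2 difference of the probe set lay between 0.23 and 0.29.

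The second probe set, 210563_x_at, behaved like the first. It had 6296 and 5433 in ING3 cells, against 4339 and 4526 in control cells, again without overlap (log2 difference 0.40, SE 0.080). Another with a higher mean in ING3 cells, 210564_x_at, had 669 and 964, against 645 and 639 in control cells. Here ING3 array a lay close to the control arrays, so array b carried most of the difference (log2 difference 0.32, SE 0.16). The dimmest tested one, 237367_x_at, had 146 and 91.7 in ING3 cells, against 94.2 and 81.0 in control cells, and the groups overlapped.

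The other 8 tested CFLAR probe sets had a lower mean in ING3 cells, and 6 of them did not overlap between the groups. Over all tested probe sets, 28.8% were lower in ING3 cells without overlap. Probe set 239629_at had 347 and 247 in ING3 cells, against 423 and 467 in control cells (log2 difference -0.60, SE 0.19, and -0.35 without ING3 array b). Probe set 235427_at had 195 and 214 in ING3 cells, against 266 and 288 in control cells (log2 difference -0.44, SE 0.18). These are the only 2 tested CFLAR probe sets that are neither _x_at, a kind open to cross-hybridisation, nor _s_at, a kind shared by several transcripts, and both were lower. Probe set 214486_x_at had 515 and 537 in ING3 cells, against 659 and 754 in control cells (log2 difference -0.42, SE 0.12). The one designed from a transcript that RefSeq lists for CFLAR, 208485_x_at, had 470 and 454 in ING3 cells, against 538 and 544 in control cells (log2 difference -0.23, SE 0.12).

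Of the remaining 4, 209508_x_at had 467 and 423 in ING3 cells, against 517 and 534 in control cells, and 211862_x_at had 601 and 586, against 642 and 676 in control cells, both without overlap. The groups overlapped for 211316_x_at, at 817 and 1185 in ING3 cells, against 1369 and 988 in control cells, and for 211317_s_at, at 468 and 592, against 558 and 642 in control cells. Of the 2 CFLAR probe sets under the filter, 217654_at had 57.0 and 35.3 in ING3 cells, against 38.1 and 49.9 in control cells, and 214618_at had 28.2 and 8.74, against 40.4 and 49.5 in control cells.

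**Figure D3:**
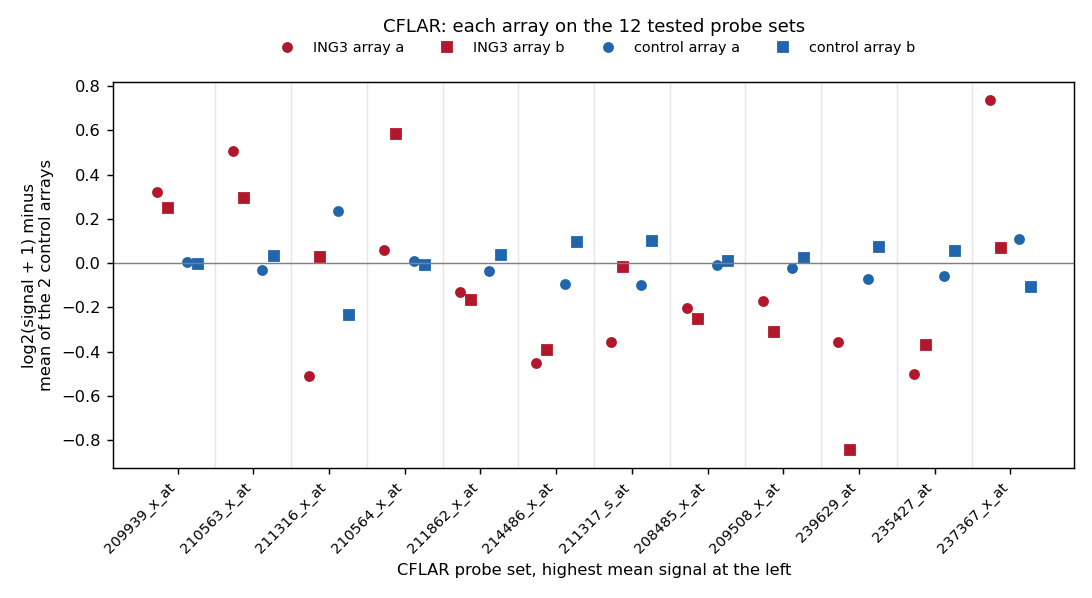
Each array on the 12 tested CFLAR probe sets, as log2(signal + 1) minus the mean of the 2 control arrays, with ING3 arrays in red (left) and control arrays in blue (right); circles are arrays a and squares arrays b. Both ING3 arrays stand above the control arrays on the 2 probe sets with the highest signal. Among the other 10, they stand above the control arrays on 210564_x_at and below them on 6. Over all tested probe sets, 19.4% were higher and 28.8% lower in ING3 cells without overlap.

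Fitted over all 27305 tested probe sets with limma, 0 of the 30 member probe sets were called, beside 0.37% of all probe sets, and 7 of the 30 had an unadjusted p under 0.05, beside 4287 of all 27305. CFLAR contributed 5 of these 7: 209939_x_at and 210563_x_at, which were higher in ING3 cells (adjusted p = 0.091 and 0.088), and 214486_x_at, 239629_at and 235427_at, which were lower (adjusted p = 0.17, 0.20 and 0.29). FADD and the TNFRSF10A probe set 231775_at were the other two. Groups did not overlap for 17 of the 30 member probe sets, against 48.1% of all tested probe sets. Of the 17, 4 were higher and 13 lower in ING3 cells, against 19.4% higher and 28.8% lower over all tested probe sets. The median log2 difference of the 30 was -0.12, and -0.047 without CFLAR, beside -0.046 over all tested probe sets.

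The mean log2 signal of the 2 CFLAR probe sets with the highest signal was 12.90 and 12.76 on the ING3 arrays, against 12.48 and 12.50 on the control arrays. That of the other 10 tested probe sets was 8.72 and 8.74 on the ING3 arrays, against 8.90 and 8.91 on the control arrays. Within each array the gap between these means was 4.18 and 4.02 in ING3 cells, against 3.57 and 3.59 in control cells, so the probe sets changed unequally by 0.52 on the log2 scale. This division was made after the values were seen and was not tested. The direction for CFLAR as a gene therefore depends on the probe set that represents it: the log2 difference was -0.18 (adjusted p = 0.52) for the mean of all 14 probe sets and -0.60 (adjusted p = 0.15) for the brightest one that is neither _x_at nor _s_at. The mean of 14 rests in good part on the dim 214618_at: without it the mean of the other 13 was -0.081, and the mean of the 12 tested probe sets was -0.091, neither of them tested. The 4 to 8 split between higher and lower probe sets was the same after quantile normalization and cyclic loess. Without ING3 array a it was 5 to 7, as 211316_x_at turned to 0.027.

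CFLAR was compared with the other genes that had at least 8 tested probe sets. There were 24 such genes, CFLAR included, and the SD of the log2 difference among the probe sets of a gene ran from 0.11 to 0.51 with a median of 0.26. CFLAR stood at 0.35, with 5 genes above it. Of the other CFLAR probe sets 27.3% went the same way as the one with the highest mean, against a median of 57.1% over the 24 genes, and 2 genes had a lower share. RefSeq places the antisense gene CFLAR-AS1 within CFLAR, and its probe set was under the filter at 51.2 and 66.8 in ING3 cells, against 68.8 and 47.8 in control cells. Which CFLAR exons or splice forms each probe set reads was not analysed here.

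Other genes of the pathway were read from a list of 65 ligands, receptors, adaptors, ubiquitin enzymes, kinases, caspases, inhibitors and necroptosis genes. Of these, 58 had a probe set with a single symbol and 49 were tested. With limma 0 of the 49 were called, beside 1.5% of all 12190 tested genes. An unadjusted p under 0.05 was reached by 16 of the 49 (beside 2161 of all 12190 genes). The mean was higher in ING3 cells for 22 and lower for 27. The groups did not overlap for 35 of the 49, 18 higher and 17 lower, against 24.3% higher and 24.9% lower of all tested genes. Their median log2 difference was -0.021, and the values below are given without a call.

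Of the ligands, TNFSF10, which encodes TRAIL, had a signal of 1200 and 1365 in ING3 cells, against 1659 and 1605 in control cells (log2 difference -0.35, SE 0.089, adjusted p = 0.090). It was lower without overlap, as was the TRAIL receptor TNFRSF10A on its probe set with the highest mean. TNFSF15, a ligand of the receptor TNFRSF25, had 358 and 357 in ING3 cells, against 251 and 218 in control cells (log2 difference 0.61, SE 0.17, adjusted p = 0.10). FASLG and TNF, the ligands of FAS and TNFRSF1A, were under the filter, with signals of 16.5 to 36.6 and of 33.6 to 93.7 over the 4 arrays.

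Of the receptors outside the 10 genes, TNFRSF10D, a TRAIL receptor with a truncated death domain that acts as a decoy, had 2016 and 1974 in ING3 cells, against 2290 and 2184 in control cells (log2 difference -0.16, SE 0.071). The decoy receptors TNFRSF10C and TNFRSF11B were under the filter, with TNFRSF10C at 47.4 and 14.1 in ING3 cells, against 53.6 and 80.0 in control cells. TNFRSF12A, the TWEAK receptor, which has no death domain, had 2449 and 2747 in ING3 cells, against 2089 and 1966 in control cells (log2 difference 0.36, SE 0.080, adjusted p = 0.068). TNFRSF1B, the other TNF receptor, was dimmer, at 168 and 206 in ING3 cells, against 144 and 109 in control cells (log2 difference 0.56, SE 0.25, adjusted p = 0.29). Both of these receptors lay higher in ING3 cells without overlap.

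The log2 differences of the 10 tested adaptors ran from -0.48 to 0.17 and those of the 9 tested ubiquitin enzymes from -0.27 to 0.31. TRADD, the adaptor of TNFRSF1A, had a log2 difference of -0.094 (SE 0.13). PEA15, a death effector domain protein that binds FADD and caspase-8, had 0.0050 (SE 0.065). BIRC2, the ubiquitin ligase cIAP1, had 0.048 (SE 0.056), CYLD, a deubiquitinase, had -0.0060 (SE 0.094) and RNF31, the catalytic subunit of the linear ubiquitin ligase, had -0.13 (SE 0.20). ITCH, a ubiquitin ligase reported to act on c-FLIP, had 1150 and 1128 in ING3 cells, against 1049 and 958 in control cells (log2 difference 0.18, SE 0.091, adjusted p = 0.33). TNFAIP3, the NF-kB induced enzyme A20, had 690 and 763 in ING3 cells, against 864 and 890 in control cells (log2 difference -0.27, SE 0.10, adjusted p = 0.22). TRAF2 and BIRC3 were not analysed here.

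Downstream of caspase-8, BID, the substrate that carries the signal to mitochondria, had 2909 and 2730 in ING3 cells, against 2390 and 2316 in control cells (log2 difference 0.26, SE 0.070, adjusted p = 0.10). CASP6, an executioner caspase, had 276 and 305 in ING3 cells, against 457 and 481 in control cells, the largest difference among the 49 tested genes of the list (log2 difference -0.69, SE 0.14, adjusted p = 0.053). Its probe set was of the _x_at kind. DFFB, the nuclease that cuts DNA in apoptosis, was also lower without overlap, at 193 and 199 in ING3 cells, against 322 and 265 in control cells (log2 difference -0.57, SE 0.19, adjusted p = 0.16). XIAP, which inhibits executioner caspases, overlapped between the groups (log2 difference -0.039, SE 0.065).

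Of the necroptosis genes, MLKL, which permeabilises the membrane, had 668 and 693 in ING3 cells, against 941 and 837 in control cells (log2 difference -0.38, SE 0.11, adjusted p = 0.11). RIPK3, the kinase that activates it, was under the filter, with 54.2 and 56.7 in ING3 cells, against 45.2 and 31.4 in control cells.

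**Figure D4:**
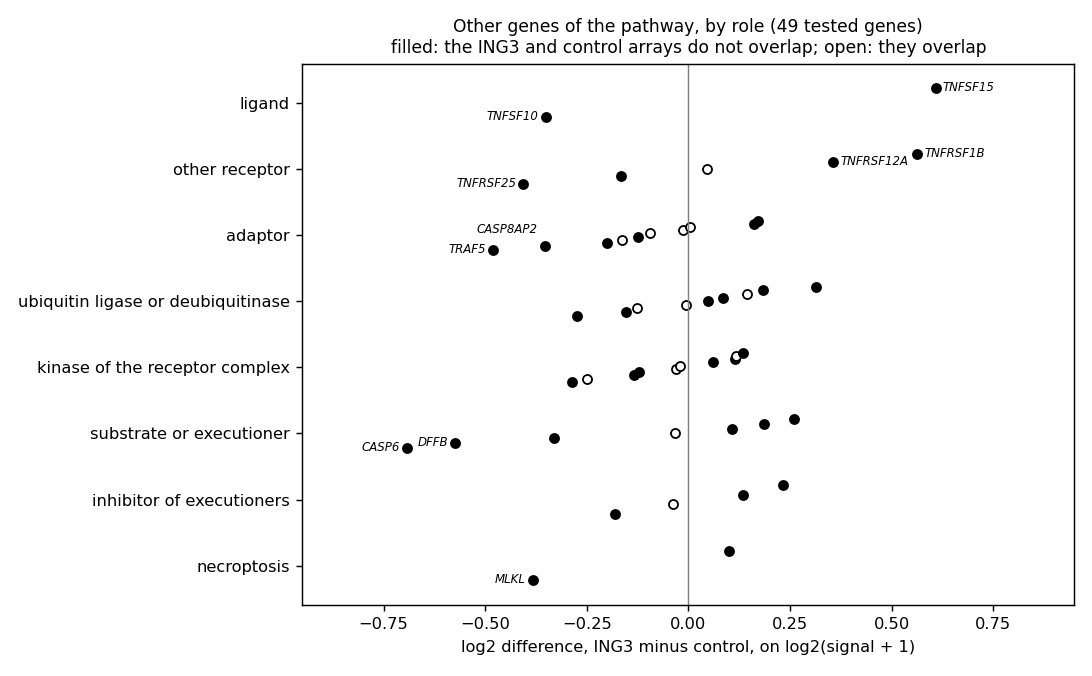
Log2 difference, ING3 minus control, of the 49 tested pathway genes outside the 10, arranged by role; filled points are genes whose ING3 and control arrays do not overlap, open points overlap. None was called by limma over all genes, beside 1.5% of all tested genes. CASP6 and DFFB lie farthest to the left, and TNFSF15 and TNFRSF1B farthest to the right.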

How the data were processed

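The authors' deposited table gave 1 linear intensity (the MAS5 signal) for each of 54675 probe sets on 4 arrays. Per the submitters' processing notes it came from Affymetrix Expression Console with the MAS5 method, versions not given in the sources used here. MAS5 uses mismatch probes as background and 1 scaling factor for an array, so low signals are noisy. No detection calls came with the table, and having 4 arrays limits the precision. The 62 control probe sets were left out, symbols came from GEO's platform annotation, and 19775 genes had a probe set with 1 symbol. Values were transformed as log2(signal + 1). Features whose mean reached the median were tested with limma 3.58.1 in R 4.3.3 (lmFit, eBayes with an intensity trend, two-sided, no covariates, Benjamini-Hochberg over all features tested), once over 12190 genes and once over 27305 probe sets. Each gene fit had 2 residual degrees of freedom and borrowed 7.35. The 10 genes and the pathway list were chosen with earlier results of these data known. Named pathway genes were fixed by name, or had a log2 difference of at least 0.5 without overlap. Alternatives were another pseudocount, filter, normalization, variance model and representative probe set, a replicate block, and leaving out each array.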

Additional observations from a re-analysis of the deposited data

How the results depend on the processing

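CFLAR was the member gene called, and the count of 1 became 0 with no filter on mean signal, after quantile normalization, after cyclic loess, without an intensity trend, with the mean of all probe sets and with the brightest probe set that is not _x_at or _s_at, and ranged from 0 to 1 when 1 array was left out; it was 0 without ING3 array a, control array a or control array b. Its difference reversed to -0.18 with the mean of all probe sets and to -0.60 with the brightest that is not _x_at or _s_at. Letters a and b are shared by the groups, but the deviations of same-letter arrays correlated at 0.029 across genes and the labels do not say that a letter marks a shared step; with the letter as a replicate block 2 member genes (CFLAR, TNFRSF10A), 2 member probe sets and 7 pathway genes were called, against 1, 0 and 0, and 442 of all genes, against 183. The pathway count ranged from 0 to 2 with 1 array left out: it was 2 without ING3 array a and 1 without ING3 array b. The median of the member genes was -0.16 with the mean of all probe sets, over 8 genes since CASP10 then fell under the filter, and ranged from -0.12 to -0.0056 with 1 array left out. Signs of genes near 0 turned: CASP10 to 0.044 (quantile) and 0.049 (loess), TNFRSF10B to -0.018 and -0.0074. With 1 array left out CASP10 ranged from -0.12 to 0.030, TNFRSF10B from -0.0056 to 0.066, CASP8 from -0.20 to -0.044, FAS from -0.16 to -0.059, and TNFRSF21 from -0.30 to 0.43. In these fits the lone array is assumed to vary like the other group. The count over all genes was 54 with no filter, 115 after quantile normalization, 0 without a trend (1686 at an unadjusted p under 0.05) and 37 with the mean of all probe sets. It was 305 without ING3 array a and 2 without either control array. The causes were not tested. Dim probe sets limit what could be detected, as did 2 arrays a group.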
